A study of Mus musculus with 4 samples.

Results

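In IGF2BP2 immunoprecipitation replicate 1, 2546 of the 15511 peaks ran across a boundary between an exon and an intron. In replicate 2, 4232 of the 22570 peaks did so. A peak was a member when the region shares that the authors deposited for it gave more than 0 to intron and also more than 0 to coding sequence (CDS) or 3' UTR. Members made up 16.4% of replicate 1 (exact binomial 95% interval 15.8 to 17.0) and 18.8% of replicate 2 (18.2 to 19.3), a difference that passed a two-sided Fisher's exact test between the 2 libraries (odds ratio 1.18, p = 4.52e-09).

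The study used mouse BMDMs, which are macrophages cultured from the bone marrow, and sequenced the RNA that came down with IGF2BP2 (RIP-seq), with 2 immunoprecipitates and 2 inputs. Its title names TSC1 and PPARγ. The labels give no genotype, age, treatment or time, and leave unsaid whether the replicates were separate cultures or separate mice; the inputs were not analysed here. The labels give 2 antibodies: one raised to IGF2BP2 in the sample characteristics, and a monoclonal one to the Flag tag in the protocol.

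IGF2BP2 is an RNA-binding protein known to bind mRNA, to read the methyl mark m6A on adenosines and to stabilise target transcripts, mainly in the cytoplasm. In a newly made transcript each intron begins at a 5' splice site, usually with the letters GT in DNA, and ends at a 3' splice site, usually with AG. Splicing removes the intron and joins the exons, so sequence from both sides of such a site lies side by side only in RNA, or in genomic DNA, where that intron is still present.

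The sites below were crossed by peaks of both libraries and are shown to mark what the members share, with exon in capitals and intron in lower case. They run 5' to 3' on the gene's strand of GRCm38, and were read from GENCODE M21 transcripts with an exon that runs across the site. Whether such a transcript keeps the whole intron was not checked.
Gpnmb, 5' splice site of intron 6, chr6:49048087-49048116, plus strand: CTAGCCCCTCTTTAAgtgagtatttcttga
Atp6v0a1, 5' splice site of intron 7, chr11:101027379-101027408, plus strand: GAGGATCCTGTGACTgtaagacaaggaaat
Vim, 5' splice site of intron 1, chr2:13574980-13575009, plus strand: GCGGCTGCGAGAGAAgtaaggcctgaccta
Tln1, 5' splice site of intron 5, chr4:43555587-43555616, minus strand: ACACAGACGATGAGTgtgagcagtagacac
Grn, 3' splice site of intron 5, chr11:102434127-102434156, plus strand: tctgtctcttctcagGCCTCTTGCTGTGAA
Lamp1, 3' splice site of intron 6, chr8:13173612-13173641, plus strand: tgccttttctttcagAATGCCAGCTCTAGC
Vim, 3' splice site of intron 3, chr2:13578574-13578603, plus strand: ctgttctttctccagGAGATCCAGGAGCTG
Of the sites crossed in both libraries, leaving out those of the shortest introns, such transcripts allowed 97 of 525 5' sites and 83 of 448 3' sites to be read. The intron began with GT at 95 of the 97 and ended with AG at 83 of the 83. The sites were taken from the annotation, so these letters are no result about the members.

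A whole member shows how the summit, the position of greatest height, sat against such a site. In the Lamp1 gene, which encodes an abundant lysosomal membrane glycoprotein, the replicate 2 peak at chr8:13173564-13173693 on the plus strand held 117 tags, as the file calls the sequence fragments it counts. Its summit was base 74 of 130, on the exon side of the 3' splice site.
Lamp1 peak: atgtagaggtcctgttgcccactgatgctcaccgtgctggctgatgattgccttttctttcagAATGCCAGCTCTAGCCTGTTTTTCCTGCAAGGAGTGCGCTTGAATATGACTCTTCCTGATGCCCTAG
In the Adam8 gene, which encodes a membrane metalloprotease of leukocytes, the replicate 2 peak at chr7:139987543-139987737 on the minus strand held 83 tags. It was 195 nt long, 9% of it in intron 12, and its summit was base 140, again in the exon.
Adam8 peak: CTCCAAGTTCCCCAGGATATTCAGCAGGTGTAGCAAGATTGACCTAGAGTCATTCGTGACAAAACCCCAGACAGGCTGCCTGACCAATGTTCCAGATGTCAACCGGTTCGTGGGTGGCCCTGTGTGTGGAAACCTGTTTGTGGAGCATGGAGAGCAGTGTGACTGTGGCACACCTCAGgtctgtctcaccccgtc

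The members were mostly plain joins of coding exon and intron. CDS and intron alone made up 90.6% of them in replicate 1 and 90.0% in replicate 2, while 147 and 247 also reached 5' UTR and 92 and 174 reached 3' UTR. The intron took a median of 44% and 46% of the peak, and more than 50% of it in 38.6% and 42.3% of members. Only 35 and 81 members lay in intron for 90% or more of their length. At the edge of the rule, the lowest intron share was 1%, held by 1 member in each library with 5 and 70 tags; just outside it, 3 peaks of replicate 1 listed both kinds of region with 1 share rounded to 0, and had a median of 5 tags.

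By the principal transcript of each gene, members fell into 4 arrangements. A 5' splice site alone lay in 1005 members of replicate 1 (39.6%) and 1582 of replicate 2 (37.4%), so that the peak ran from an exon into the intron after it. A 3' splice site alone lay in 884 (34.8%) and 1347 (31.9%). A whole exon with intron on both sides lay in 468 (18.4%) and 950 (22.5%), and at least 1 whole intron in 149 (5.86%) and 290 (6.86%). The remaining 35 and 57 held no site of the principal transcript, and 5 and 6 members had a gene that was not matched in the annotation. Of the members with a single site, 53.2% in replicate 1 (50.9 to 55.5) and 54.0% in replicate 2 (52.2 to 55.8) held the 5' site, and the libraries did not differ detectably in this (odds ratio 1.03, Fisher's exact p = 0.594).

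**Figure D1:**
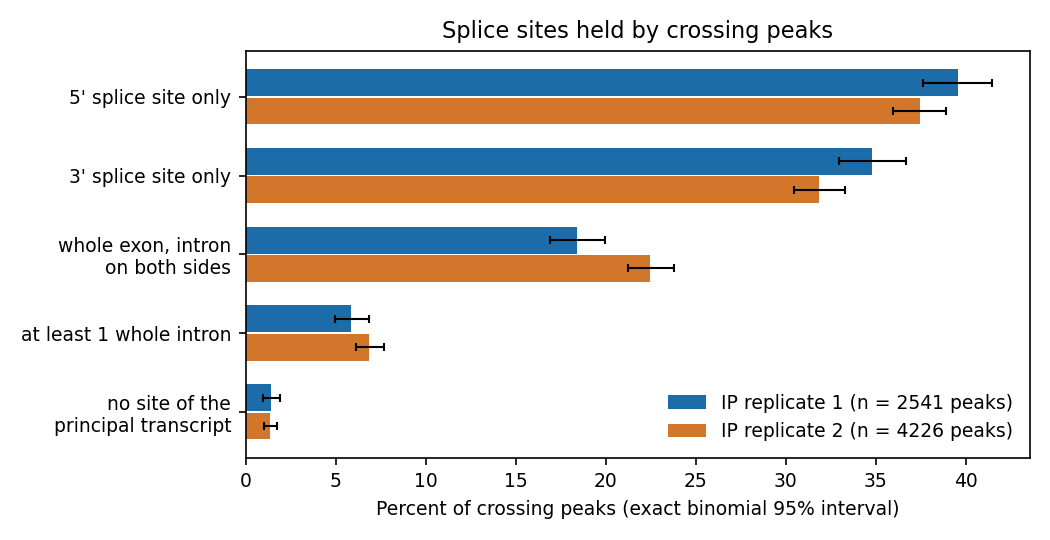
Share of crossing peaks (x axis, percent, with exact binomial 95% intervals) by the splice sites of the principal transcript that they held (y axis), for IP replicate 1 (2541 peaks) and IP replicate 2 (4226 peaks). Peaks with a single 5' or 3' site made up most of both libraries, and whole exons took 18.4% and 22.5%.

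The exonic end of a member often stopped at an exon edge. Among members with a 5' site only, the other end lay within 2 nt of the far end of the same exon in 57.5% of replicate 1 and 62.0% of replicate 2; for members with a 3' site only it did so in 55.2% and 60.0%. From an exon, members reached a median of 77 nt past a 5' site in replicate 1 and 86 nt in replicate 2. Before a 3' site they reached 77 and 88 nt, so the reach was alike on both sides of the exon. Peaks wholly in CDS, where either end could count, stopped within 2 nt of an exon edge at 1 end or more in 88.1% and 89.1% of cases. They did so at both ends in 47.3% and 51.6%.

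Although the intron held a large part of the length, the summit was nearly always exonic. It lay in an exon of the gene in 95.4% of members of replicate 1 (94.6 to 96.2) and 96.2% of replicate 2 (95.6 to 96.8). Exons held a mean of 63.3% and 61.8% of the same peaks' length, and the midpoint of the peak was exonic in 73.2% and 71.3%. The libraries did not differ detectably (odds ratio 1.22, Fisher's exact p = 0.128). Exonic summits also prevailed in members that held a whole exon with intron on both sides, at 95.7% and 97.2%, where exons held 50.1% and 49.6% of the length. The exon lies between 2 introns in such members, and their midpoint was exonic in 79.3% and 76.6%. In members with a single site the exonic summits lay a median of 31 to 36 nt from that site.

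The deposited summit is 1 position, and it was at the exon's lowest genome coordinate in 502 and 786 members but at its highest in only 52 and 62. A summit at an exon edge may therefore mark 1 end of a stretch of equal height, and the exact distances are read with that limit. Read as counted from 1, the positions put 78.6% and 80.4% of summits in exons; this reading was tried after seeing the data, and the match to exon starts went against it.

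**Figure D2:**
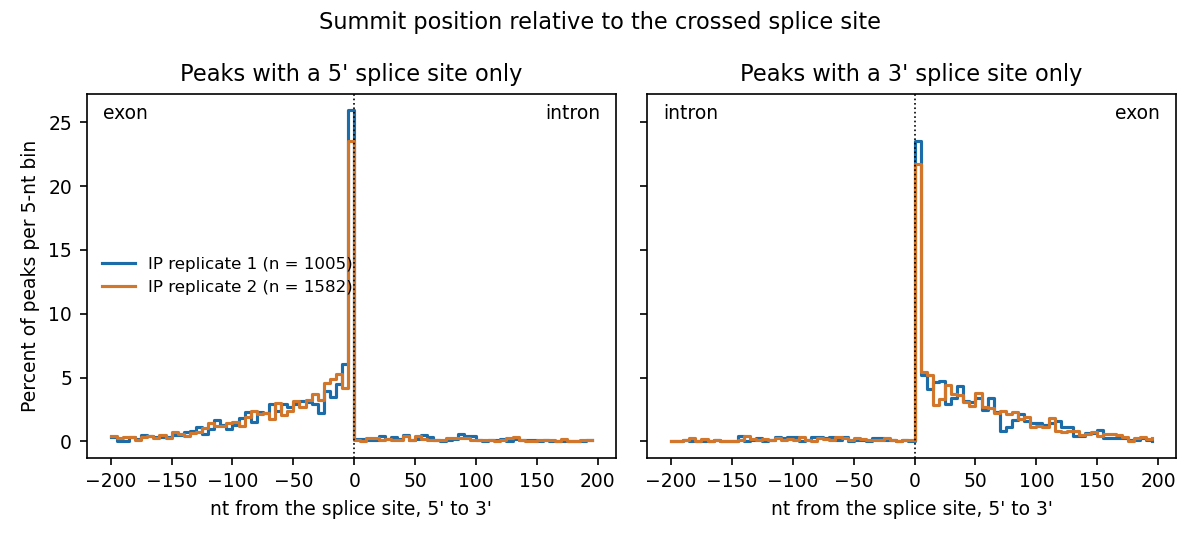
Percent of peaks in each 5-nt bin (y axis) by distance of the summit from the crossed splice site in nt, 5' to 3' (x axis, dotted line at the site), for peaks with a 5' site only (left) and a 3' site only (right). Most summits in both IP replicates lie on the exon side, with the highest bin next to the site.

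Members carried more tags than peaks of either neighbouring class. Their median was 11 tags in replicate 1 and 13 in replicate 2, against 8 and 9 for peaks wholly in CDS and 6 and 8 for peaks wholly in intron. In all they held 23.5% of the 189393 tags in peaks of replicate 1 and 28.9% of the 324456 of replicate 2. Over all peaks, 33.9% of replicate 1 and 43.9% of replicate 2 had 10 or more tags; members did so in 58.4% and 67.6%. The share was 32.9% and 43.9% for peaks wholly in CDS, and 28.4% and 40.1% for peaks wholly in intron, and all 4 differences passed Fisher's exact test after Benjamini-Hochberg adjustment (odds ratios 2.66 to 3.54, largest adjusted p = 1.01e-95).

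Length moved with these tags. Members had a median length of 225 and 246 nt, against 120 and 123 nt wholly in CDS and 238 and 264 nt wholly in intron. Per 100 nt of peak they held a median of 4.72 and 5.13 tags, below the 6.56 and 7.29 of peaks wholly in CDS and above the 2.75 and 3.01 of peaks wholly in intron. Among peaks over 150 and up to 250 nt long, 10 or more tags were found in 46.4% of members of replicate 1 against 40.6% wholly in CDS (adjusted p = 0.00863, Fisher's exact test), and in 53.8% against 52.6% in replicate 2 (adjusted p = 0.510). Over 250 and up to 400 nt, the shares were 73.4% against 53.4% in replicate 1 (adjusted p = 2.79e-08, Fisher's exact test) and 78.0% against 61.5% in replicate 2 (adjusted p = 5.51e-09). Against wholly intronic peaks over 150 and up to 250 nt long the gap was wider, 46.4% against 7.51% and 53.8% against 9.67%.

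Of all peaks, 34.8% of replicate 1 and 23.6% of replicate 2 shared at least 1 bp with a same-strand peak of the other library. Among members the overlap was found for 1290 (50.7%) and 1596 (37.7%). It was found for 44.8% and 28.9% of peaks wholly in CDS (adjusted p = 2.60e-06 and 1.59e-20, Fisher's exact test) and for 17.5% and 11.0% of peaks wholly in intron (adjusted p = 4.27e-177 and 3.31e-226). Where 50% of each peak had to overlap, the difference from CDS peaks no longer passed, at 0.00163 percentage points in replicate 1 and -0.383 in replicate 2 (adjusted p = 1 and 0.889, Fisher's exact test); members are the longer peaks. These tests treat peaks as units and so compare peak classes in this pair of libraries, not conditions.

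The order against CDS peaks turned with the tag count. Within classes of 3 to 5, 6 to 9, 10 to 19 and 20 to 49 tags, members recurred in smaller shares than peaks wholly in CDS: the difference lay between -8.48 and -3.54 percentage points in replicate 1 and between -6.33 and -0.515 in replicate 2, and 5 of these 8 differences had an adjusted p under 0.05. At 6 to 9 tags, for example, 33.6% of members and 42.1% of CDS peaks of replicate 1 recurred (adjusted p = 1.71e-04, Fisher's exact test). At 50 or more tags the shares were 86.6% and 81.0% in replicate 1, and 81.5% and 80.8% in replicate 2, with adjusted p = 0.500 and 0.90 in Fisher's exact test. Members recurred more often than wholly intronic peaks in each of the 5 classes of both libraries, such as 60.4% against 33.2% at 10 to 19 tags in replicate 1.

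**Figure D3:**
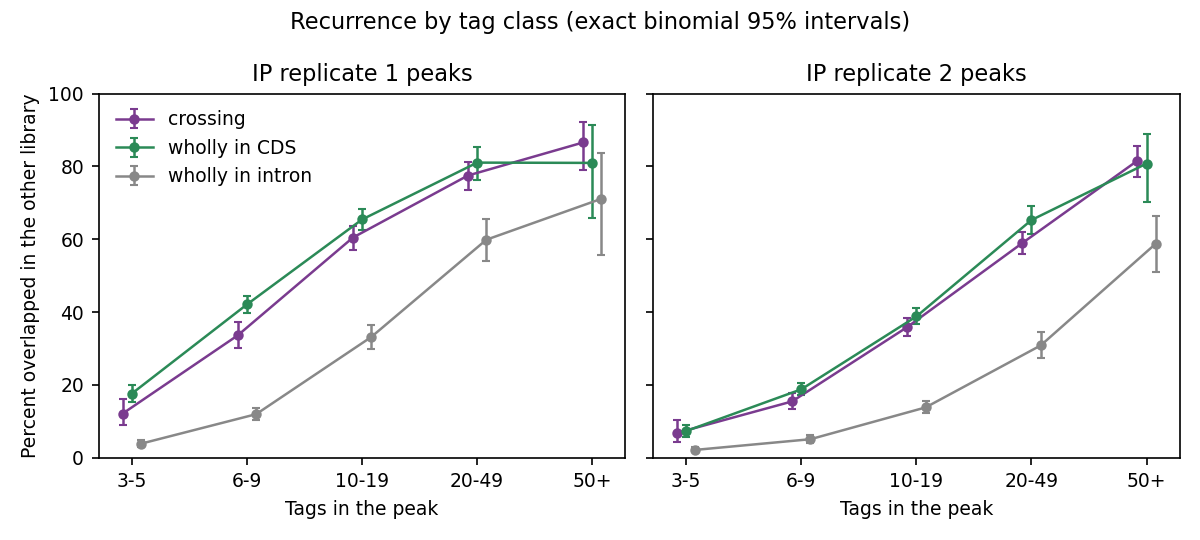
Percent of peaks overlapped in the other library (y axis, exact binomial 95% intervals) by tags in the peak (x axis), for peaks crossing exon and intron, wholly in CDS and wholly in intron. Crossing peaks lie near but mostly below CDS peaks up to 49 tags and above intronic peaks throughout.

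A member was not always met by a member. Of the 1290 recurring members of replicate 1, 65.3% were overlapped by a crossing peak of replicate 2, 29.7% by a peak wholly in CDS and no crossing peak, and 0.775% by a peak wholly in intron and neither of these. Of the 1596 of replicate 2, the shares were 52.6%, 40.1% and 1.5%. Where the other library lacked the intronic side, the place was thus usually seen as exon alone. Crossing peaks of both libraries held 977 of the same splice sites, in 444 genes, which was 30.0% of the sites of replicate 1 and 17.1% of those of replicate 2.

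Ctsd, which encodes the lysosomal aspartic protease cathepsin D, shows this within 1 gene. Its exon 2 carried 61 tags in replicate 1 in a peak wholly in CDS, and 108 tags in replicate 2 in a peak that ran on past the 5' splice site, 33% of it intron. Its exon 3 carried 62 tags in a CDS peak of replicate 1 and 115 tags in a replicate 2 peak that began before the 3' splice site. At exon 4 both libraries crossed into the next intron, with 141 tags over 1006 nt in replicate 1 and 145 tags over 195 nt in replicate 2. The strongest Ctsd peak, at exon 5, had 269 and 370 tags and was 70% and 72% intron.

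**Figure D4:**
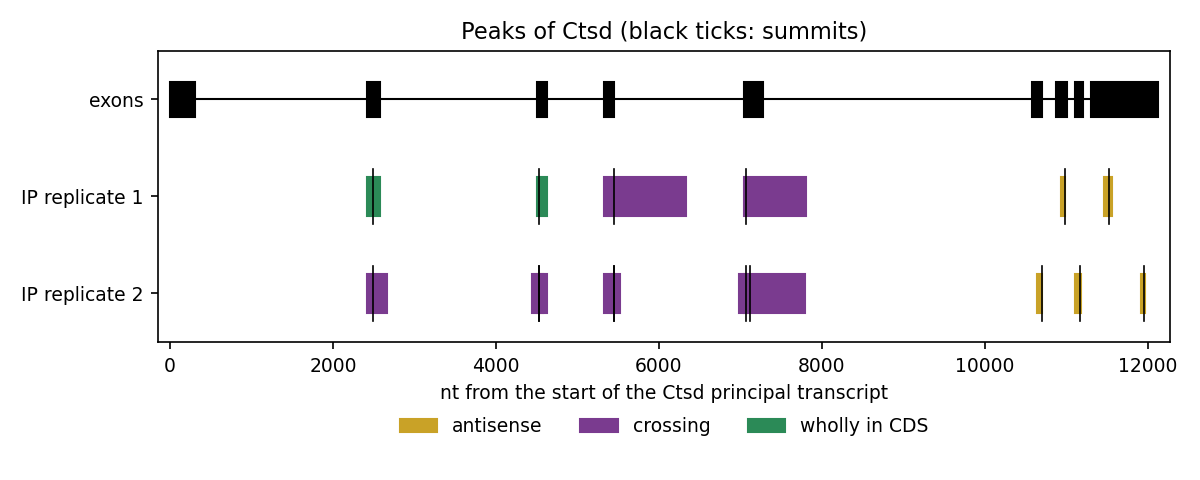
Peaks of Ctsd by IP replicate along the gene (x axis, nt from the start of the principal transcript, 5' to 3'), with exons as black boxes, summits as black ticks and colours for the kind of peak. At exons 2 and 3 the peaks are wholly in CDS in replicate 1 and crossing in replicate 2.

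The introns entered were much like the others of their genes in length. Members of replicate 1 entered 2905 of 25399 introns of their genes (11.4%), and those of replicate 2 entered 4943 of 35534 (13.9%), with 1054 introns entered in both. Their median length was 1152 and 1233 nt, against 1086 and 1138.5 nt for all introns of these genes. The 175 and 335 introns held whole were short, with medians of 94 and 98 nt, and 61 of them were held whole in both libraries. A peak can hold only an intron shorter than itself, so their shortness is no result about these introns. The shortest annotated intron held whole was 1 nt in each library. Introns were put in 5 groups by order along the gene. The groups held 4320 to 5376 introns in replicate 1 and 5995 to 7561 in replicate 2. The group nearest the 3' end was entered least, at 9.19% and 11.6%. The other groups were entered at 10.9 to 12.0% and 13.3 to 14.4%, and this is given without a test.

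Retained introns are introns that stay in some finished transcripts, and the annotation lists transcripts of that kind. Of the members, 11.2% (10.0 to 12.5) and 10.2% (9.33 to 11.2) lay within a single exon of an annotated retained-intron transcript, so that RNA of that form would hold the whole peak. The shares were 2.81% and 2.95% for peaks wholly in intron. Members within such exons recurred in 49.8% and 35.2% of cases and the other members in 50.8% and 38.0%. Another gene on the same strand overlapped 63 and 105 members (2.47% and 2.48%). A small RNA gene (snoRNA, scaRNA, snRNA or miRNA) overlapped 15 and 24 (0.589% and 0.567%). These overlaps were not counted for other peaks.

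The letters GGAC, the core of many m6A sites, were sought on the transcript strand in 101-nt windows at summits, wherever annotated transcripts allowed the whole window to be read. The motif was in 40.1% of 748 member windows of replicate 1 and 43.9% of 1284 of replicate 2. Windows of peaks wholly in CDS held it in 40.3% and 39.5%, and those of peaks wholly in intron in 30.6% and 29.2%. GGAC was also counted over the whole length of members that lay within 1 exon of any annotated transcript. By the principal transcript, it was found there 5.32 and 5.91 times per kb of exon and 3.71 and 3.49 times per kb of intron. Only summit windows lying within 1 exon of an annotated transcript could be read. For peaks wholly in intron these were 157 of 4019 in replicate 1 and 250 of 6038 in replicate 2. A match is a description of letters, not a modified base.

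Members lay in 1516 genes in replicate 1 and 2217 in replicate 2, with 927 genes in common (61.1% and 41.8% of each). Most genes had 1 member (1043 and 1339), while 72 and 133 had 5 or more. Lrp1, a giant endocytic receptor with 88 introns, had the most: 29 members with 1155 tags in replicate 1 and 36 with 2229 tags in replicate 2. They entered 28 and 47 of its introns, 23 of them in both libraries. Flna, which encodes the actin cross-linker filamin A, had 14 and 15 members with 563 and 1239 tags, and Mrc1, the macrophage mannose receptor, had 11 and 16 with 658 and 1369 tags. Myof, the membrane repair protein myoferlin, had 11 and 19 members, and Vwf, which encodes von Willebrand factor, had 11 and 17. Genes with many introns offer more places for a member, and these counts are not set against intron number.

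At 860 pairs of overlapping members, in 507 genes, the libraries could be compared place by place. The pair shared a splice site in 86.3% of cases, and the summits lay a median of 26 nt apart. Tags of the paired peaks went together across places (Spearman's rho 0.81, Pearson's r of log2 tags 0.83, n = 860, given as a description because the places come from the same libraries and share transcript abundance). The 20 genes with the strongest such places were taken for a closer view, and in 19 of them the pair shared a splice site. Both summits were exonic in all 20.

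Lysosomal genes stood at several of these places. Psap, which encodes prosaposin, the precursor of activators of sphingolipid breakdown, had 445 and 606 tags at chr10:60295496-60296719 and chr10:60295437-60296857. These peaks held 1 exon with introns 6 and 7 on either side, were 95% and 96% intron, and had the same summit. Atp6v0a1, a subunit of the V-ATPase proton pump, had 172 and 420 tags across introns 17 to 19, in peaks 92% and 97% intronic. Grn, which encodes progranulin, had 169 and 431 tags from intron 4, at the site shown above. For these 3 genes replicate 2 held the higher count, as it did in total.

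Other lysosomal genes had fewer tags at their strongest place than Psap. Ctsb, the cysteine protease cathepsin B, had 139 and 178 tags around the exon between introns 2 and 3, with the same summit in both libraries. Ctss, cathepsin S, had 78 and 140 tags at the 3' splice site of intron 7, its last, again with the same summit. Lamp1 went the other way, with 168 tags over introns 6 and 7 in replicate 1 and the 117 tags of the peak printed above in replicate 2. Mfsd12, a transporter of lysosomes and melanosomes, had 147 and 187 tags across introns 6 to 8.

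Genes of macrophage identity formed another set. Csf1r, the receptor for the growth factor that sustains macrophages, had 215 and 363 tags at introns 11 and 12. Gpnmb, a glycoprotein of lipid-laden macrophages, had 261 and 354 tags at the 5' splice site of intron 6, and only the replicate 2 peak also reached intron 5. Mrc1 had 103 and 148 tags at intron 13, and its intron share was 36% and 62%. Csf2ra, a chain of the GM-CSF receptor, is not in the list of macrophage identity genes counted below. It had 124 and 197 tags across 6 introns in a row, from intron 5 to intron 10. Each of these places had more tags in replicate 2, and each had its summit in an exon.

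Genes of the cytoskeleton and of cell scaffolds were also among the 20. Flna had 176 and 331 tags across introns 9 to 12, and Vim, which encodes the filament protein vimentin, had 88 and 137 tags at the 5' splice site of intron 1. Tln1, talin 1, which links integrins to actin, had 67 and 182 tags at the 5' splice site of intron 5. Plec, the linker plectin, had 154 and 113 tags, but its summits were 1143 nt apart, so the 2 peaks were centred on different exons. Ahnak, a giant scaffold protein, had 82 and 136 tags with summits 1 nt apart.

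The remaining places need more caution. Sdc4, the heparan sulfate proteoglycan syndecan 4, had 61 tags over 218 nt in replicate 1 and 252 tags over 2517 nt in replicate 2, where 95% was intron. H2-D1, a class I histocompatibility gene with near-identical relatives, had 95 and 127 tags in peaks that shared no splice site, and its reads may be split among those relatives. Among these 20 places the highest counts, 809 and 1067, belonged to Gm10800 at chr2:98666549-98667333 and chr2:98666547-98667334, a predicted gene in satellite-like repeat sequence; reads from other copies of such repeats can be placed there, so these counts are uncertain. Only 12% of those peaks was intron.

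**Figure D5:**
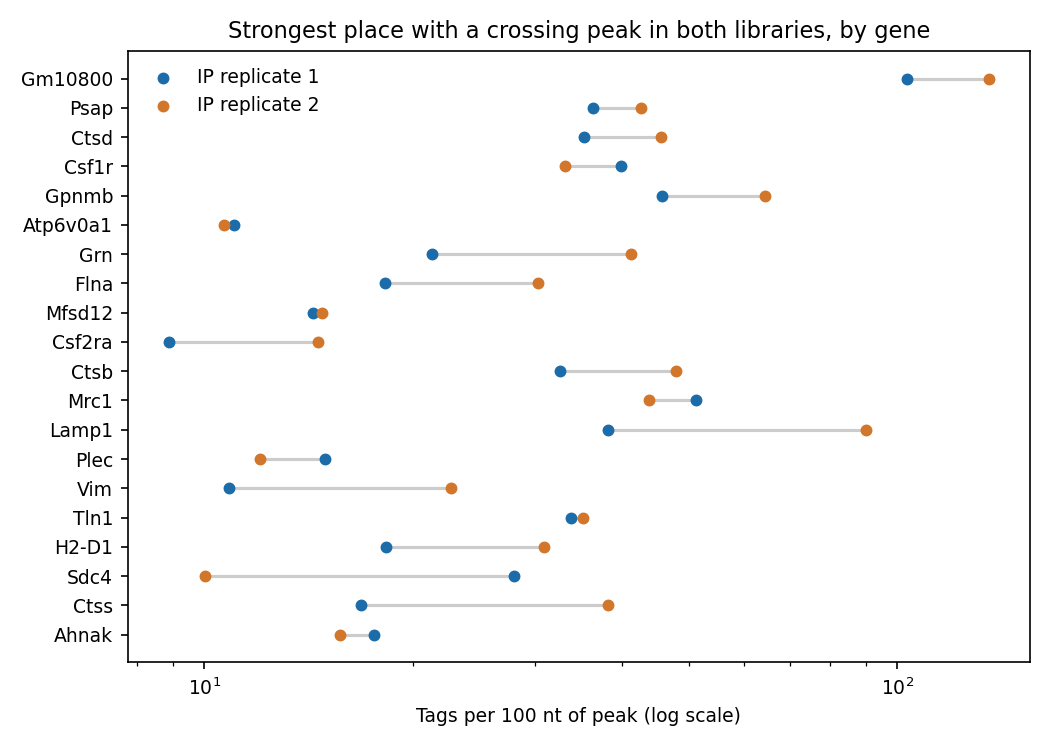
Tags per 100 nt of peak (x axis, log scale) at the strongest place with a crossing peak in both libraries, for 20 genes (y axis), with 1 point per IP replicate and no error bar because each is a single peak. Gm10800 is highest in both, and Sdc4, Lamp1 and Ctss show some of the wider gaps between replicates.

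The genes of the title carried few members. Tsc1, the gene of hamartin, which acts with tuberin to restrain mTORC1, had 1, in replicate 2 only, among 1 and 3 peaks of the gene. It lay at chr2:28678100-28678280 with 8 tags, held the 44-nt exon 16 with intron on both sides, was 76% intron and did not recur. Igf2bp2 itself also had 1 in replicate 2, at chr16:22079981-22080201, with 8 tags across the 5' splice site of intron 7, and it did not recur. Pparg, the nuclear receptor PPARγ, had 3 and 10 peaks and 0 members in either library. With 8 tags, a peak had more tags than 20.4% of the members of replicate 2.

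Across 10 gene lists, the share of genes with a member in both libraries was read against 4.22% of 21951 protein-coding genes and 24.8% of the 3739 of them with a sense peak in both. It was highest for actin cytoskeleton and adhesion genes, with 23 of 30, and those with a sense peak in both libraries were 26. For lysosomal genes it was 16 of 30 (27 with a peak in both) and for macrophage identity genes 11 of 25 (15). Genes of PPARG signalling and alternative activation gave 11 of 30 (20), among them Lpl, lipoprotein lipase, with 43 and 69 tags at the 5' splice site of intron 7. Abcg1, a cholesterol exporter of the same list, had 39 and 48 tags at intron 9. The lists were chosen with earlier results of these data known, and no test was made of them. As with the counts by gene, the shares of the lists are not set against intron number.

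Lists of RNA processing lay closer to the background than these 4. SR proteins, CLK kinases and hnRNPs gave 12 of 41 (31 with a peak in both), led by Hnrnpa2b1 with 60 and 66 tags at intron 4. Hnrnpl had 22 and 35 tags at the 5' splice site of intron 2. The core spliceosome gave 6 of 33 (19), where Prpf8, the scaffold of the catalytic centre, had 12 and 12 tags at the 3' splice site of intron 3, and Sf3b3, a subunit that helps to recognise branch points, had 8 and 18 at that of intron 13. The m6A machinery gave 3 of 24 (10).

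The TSC and mTORC1 pathway gave 2 of 40, although 23 had a sense peak in both libraries, and 7 and 9 had a member in replicate 1 and replicate 2. Its strongest place was in Fnip2, a partner of folliculin, with 45 and 41 tags over introns 8 and 9. Glycolysis gave 3 of 19 (12 with a peak in both), with Hk3, a hexokinase, at 63 and 104 tags around intron 9. Classical activation gave 3 of 34 (8). There Irf5, a transcription factor of inflammatory macrophages, had 13 and 18 tags at intron 8. The replicate 1 peak held the 5' splice site of that intron and the replicate 2 peak the 3' site, so they shared none. Nfkb1 had 10 and 14 tags at intron 13. The files hold no expression values, so a gene without a peak may be unbound or simply scarce.

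As a check of the cell label, 16 and 18 of the 25 macrophage genes had a sense peak, crossing or not. Of all 21951 protein-coding genes, 4828 had such a peak in replicate 1 and 5861 in replicate 2. Of the markers of other cells, peaks were found for 1 and 0 of 9 for T and NK cells, 1 and 0 of 6 for B and plasma cells, 1 and 1 of 7 for neutrophils, 0 and 0 of 6 for erythroid cells, and 1 and 0 of 6 for fibroblasts and stroma. No marker list covered endothelial cells or megakaryocytes, so the check does not speak to them. Vwf was in none of these marker lists and had 22 peaks in replicate 1 and 28 in replicate 2. Library totals are not in the files, and the intervals and tests cover counting error only, without molecular identifiers.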

How the data were processed

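RNA from 2 IGF2BP2 immunoprecipitates of BMDMs was analysed, with 1 peak list for each; the 2 inputs were not analysed here. The submitters' processing notes name bcl2fastq, TopHat2 and the build GRCm38. How peaks were called, and whether input entered the calling, is not given in the sources used here. The deposited tag count of a peak, per the file headers, is whole and not normalized, and it was at least 3. The deposited maximum height is a coverage signal, the largest pile of tags at a single base, and was at most the tag count. Low counts limit precision, and tags in peaks are no library size.

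File starts and summits were read as counted from 0, since 2975 and 4100 wholly coding peaks started 1 base before an exon and only 7 and 16 at its first base, although the deposited length is end minus start plus 1. Printed starts and summits are the file's plus 1.

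Splice sites came from GENCODE M21, from the principal transcript of each gene; summits were placed over exons of all transcripts. Shares were compared by Fisher's exact test (two-sided) with Benjamini-Hochberg adjustment within each family (4 tests, 20 over tag classes, 16 over length classes; threshold 0.05), in Python 3.11.15 with scipy 1.17.1 and statsmodels 0.14.6. Bedtools 2.31.1 gave the same overlap counts, 5403 and 5325. Site classes were tested on simulated peaks.

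The genes named are the title's Tsc1 and Pparg, with Igf2bp2; the 20 genes highest by mean rank of tags where members of both libraries overlap; the 5 genes with most members; and up to 3 genes per list, ranked alike. Adam8 was chosen to show a sequence. Members and lists were chosen with earlier results of these data known. Alternatives varied the overlap, strand, tag minimum, region share, transcripts, and tag and length classes.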

Additional observations from a re-analysis of the deposited data

How the results depend on the processing

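Members made up 17.8% of the peaks of both libraries together, 22.2% of peaks with 6 or more tags, 16.7% where each region had to hold 10% of the peak, 20.5% where an annotated splice site was required, and 16.4% to 18.8% with 1 replicate left out. Where 50% of each peak had to overlap, the gap in recurrence to CDS peaks was 0.00163 points in replicate 1 and -0.383 in replicate 2. Within tags of 3 to 5, 6 to 9, 10 to 19, 20 to 49 and 50 or more it was -5.49, -8.48, -4.98, -3.54 and 5.60 points in replicate 1, and -0.515, -3.32, -2.93, -6.33 and 0.778 in replicate 2. The gap to CDS peaks in the share with 10 or more tags missed the threshold in replicate 2 for lengths up to 150 nt (2.18 points), over 150 and up to 250 nt (1.26) and over 400 nt (1.96), and in replicate 1 for over 400 nt (0.482).

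The excess of exonic summits over exonic length was 38.0 and 40.6 points with principal transcripts, 33.2 and 35.9 with 10% in each region, 33.4 in replicate 1 with 6 or more tags, and 15.5 and 18.8 with positions counted from 1, chosen after seeing the data. The libraries' difference in exonic summits was 1.03 points with 10% in each region (Fisher's exact p = 0.0339) and -0.270 with 6 or more tags. The cause was not tested. The other settings kept direction and side of the threshold, including all of those on splice sites. No paired analysis was possible because replicate numbers are shared only between immunoprecipitates and inputs, and no input values were analysed here. Peaks of few tags limit what recurrence can show.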
